A study of Macaca mulatta with 136 samples.

Results

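The EphA receptors and ephrin-A ligands were followed in the neural retina and in the RPE/choroid, the layer of the retinal pigment epithelium and the vessels behind it, of the rhesus macaque. The family was taken as 10 listed genes, the receptors EPHA2, EPHA3, EPHA4, EPHA5, EPHA6 and EPHA7 and the ligands EFNA1, EFNA3, EFNA4 and EFNA5, and each was found by its gene symbol in the deposited tables. This gave 9 genes, 6 receptors and 3 ligands, of the 19422 gene identifiers in the series, and EFNA4 was not analysed here. The receptors are listed as ENSMMUG00000018245 (EPHA2), ENSMMUG00000008242 (EPHA3), ENSMMUG00000012364 (EPHA4), ENSMMUG00000014468 (EPHA5), ENSMMUG00000023330 (EPHA6) and ENSMMUG00000014867 (EPHA7), and the ligands as ENSMMUG00000005350 (EFNA1), ENSMMUG00000023350 (EFNA3) and ENSMMUG00000018398 (EFNA5). The identifier listed as EFNA3 carries EFNA4 as its human symbol and EFNA3 as its macaque symbol, and these genes and EFNA1 lie next to each other on chromosome 1 of a newer macaque assembly, T2T-MMU8v2.0, so it is uncertain which of EFNA3 and EFNA4 its values describe. Punches 2 mm across were taken at 4 locations, fovea, perimacula, nasal and periphery, in the right (OD) and left (OS) eyes of 2 adult animals, RM03 and RM04, aged 13 and 18 years. The study describes the foveal punch as macular/foveal and the peripheral region as temporal. The nasal and peripheral punches thus lie on different sides of the eye, so side and distance from the fovea cannot be told apart between them. Each punch was separated into retina and RPE/choroid, which gave 32 libraries of poly-A-selected RNA, with 4 eyes in each of the 8 groups. The tissue was taken after death and the labels name no experimental treatment or genotype. The sources used here do not tie the ages to the animals. Fellow eyes share an animal and deviated together from their group means, so tests over 4 eyes rest on 2 animals.

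Eph receptors are the largest family of receptor tyrosine kinases, and their ephrin ligands sit in the membrane of the neighbouring cell, so that signalling needs contact between cells. Ephrin-A ligands are held by a lipid anchor and bind mainly EphA receptors, and signals run both into the cell with the receptor (forward) and into the cell with the ligand (reverse). In the visual system the family is best known for repelling growing ganglion cell axons, which are the only output of the retina, and in epithelia and vessels EPHA2 and its ligand ephrin-A1 act on cell junctions and vessel growth.

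Levels are given as counts-per-million values (CPM) normalised by the trimmed mean of M values (TMM) over all 32 libraries, in the order RM03 OD, RM03 OS, RM04 OD, RM04 OS. They compare a gene between samples and not different genes, since transcript lengths were not used here. Libraries held 42448903 to 78574055 estimated counts. The periphery libraries were sequenced on a flow cell of their own, so that location and flow cell cannot be told apart for the periphery, while the fovea, perimacula and nasal libraries shared flow cells. Summed markers fitted the tissue labels: the 6 RPE markers used added up to 9941 to 25192 CPM in RPE/choroid and 151 to 1315 CPM in retina, and the 9 rod markers to 4007 to 27959 CPM in retina and 50.1 to 924 CPM in RPE/choroid. Differences were tested with edgeR's quasi-likelihood test with the animal as covariate. A gene was called at an adjusted p under 0.05, adjusted by the Benjamini-Hochberg method over all genes tested. Log2 fold changes are given with an approximate standard error (SE). It was derived from the test, as the absolute log2 fold change divided by the square root of the F statistic.

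The first question was how the family differed between the fovea and the periphery of the retina. Of the 9 genes, 8 were called, against a background of 67% of all genes tested. Of these, 6 were higher at the fovea, where the background was 31.3%, namely EPHA4, EPHA5, EPHA6, EPHA7, EFNA1 and EFNA3, while EPHA2 and EPHA3 were higher at the periphery, where the background was 35.7%. Their median absolute log2 fold change was 1.63, beside 0.58 over all genes tested. EFNA5 was the gene that did not pass. The 9 genes were chosen with earlier results of these data known, so comparisons with a background, here and below, are description only.

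**Figure D1:**
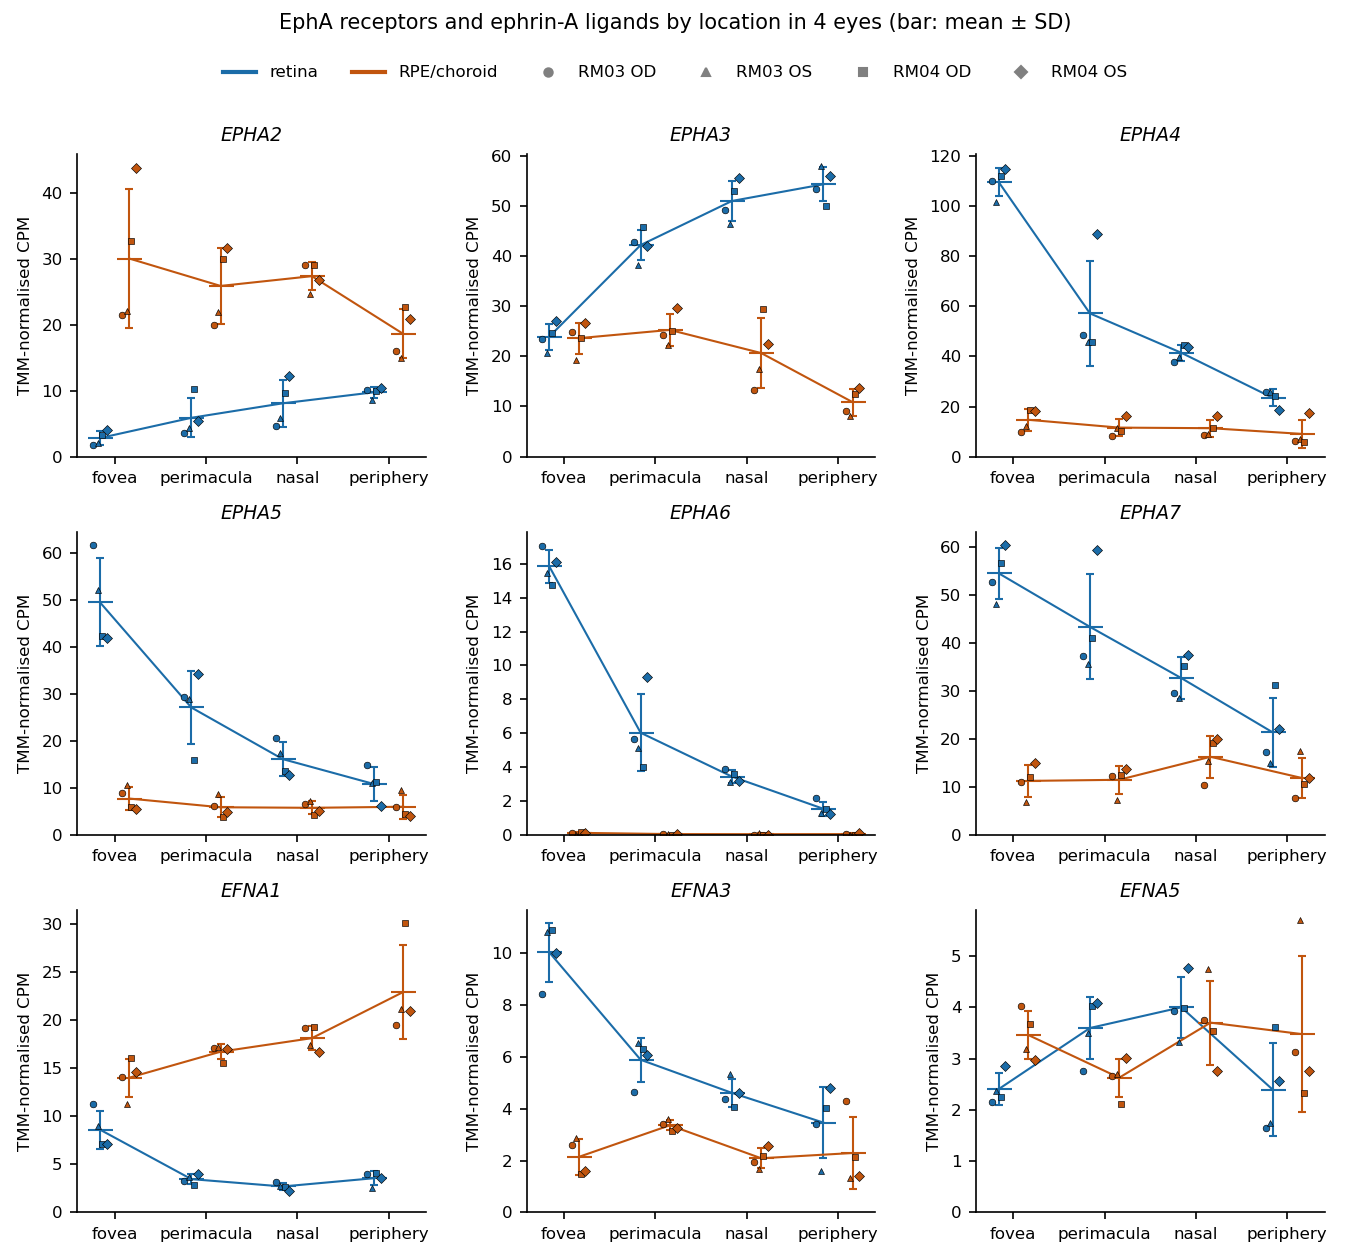
Level of each EphA and ephrin-A gene (TMM-normalised CPM, vertical axis) at 4 locations in retina (blue) and RPE/choroid (orange); each symbol is an eye, horizontal bars with whiskers are means ± SD over 4 eyes, and lines join the means. In retina EPHA4 falls from 109.7 CPM at the fovea to 23.5 CPM at the periphery, EPHA3 runs the other way from 23.9 to 54.3 CPM, and EPHA6 lies near 0 throughout the RPE/choroid.

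EPHA6, a receptor of neurons with a role in axon guidance, had the largest fold change of the receptors. Its retinal level was 17.1, 15.5, 14.7 and 16.1 CPM at the fovea, 5.66, 5.13, 3.997 and 9.29 CPM in the perimacula, 3.90, 3.09, 3.57 and 3.14 CPM at the nasal location and 2.13, 1.26, 1.49 and 1.21 CPM at the periphery. No neighbouring pair of locations overlapped, in the order fovea, perimacula, nasal, periphery. Between fovea and periphery the difference was 10.8-fold (log2 3.44 ± 0.27, adjusted p = 5.56e-07, same direction in 4 of 4 eyes).

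EPHA4, unusual among EphA receptors in that it binds ephrin-B as well as ephrin-A ligands, held the same order. The foveal eyes were at 109.96, 102, 112 and 115 CPM and the peripheral eyes at 25.6, 25.6, 24.1 and 18.6 CPM, with the perimacula at 48.7, 45.6, 45.7 and 88.7 CPM and the nasal location at 37.8, 39.8, 44.5 and 43.9 CPM between them. Again no neighbouring locations overlapped, although the left eye of RM04 at the perimacula was far closer to the fovea than the other 3 eyes were. The foveal level was 4.84 times the peripheral level (log2 2.27 ± 0.20, adjusted p = 1.42e-06).

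EPHA5, which patterns the projection of ganglion cell axons to their targets, was at 61.6, 52.1, 42.2 and 41.9 CPM at the fovea, 29.2, 28.8, 15.95 and 34.3 CPM in the perimacula, 20.6, 17.5, 13.5 and 12.6 CPM at the nasal location and 14.7, 10.9, 11.3 and 6.13 CPM at the periphery. The log2 fold change was 2.27 ± 0.24 (adjusted p = 5.40e-06), and the fovea stood clear of every other location, while perimacula and nasal eyes overlapped, as did nasal and peripheral eyes. EPHA7, known for a short form without the kinase domain that alters adhesion to ephrin-A5, differed least of these receptors. It was at 52.6, 48.1, 56.7 and 60.4 CPM at the fovea, 37.2, 35.5, 41.03 and 59.3 CPM in the perimacula, 29.5, 28.4, 35.1 and 37.4 CPM at the nasal location and 17.3, 14.8, 31.2 and 21.9 CPM at the periphery, with a log2 fold change of 1.45 ± 0.15 (adjusted p = 4.40e-06). The fovea and the periphery did not overlap, while neighbouring locations in the order of its means did.

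EPHA2 and EPHA3 ran in the opposite direction in the retina. EPHA3, a guidance receptor that binds ephrin-A5, was at 23.5, 20.7, 24.5 and 26.9 CPM at the fovea, 42.7, 38.2, 45.7 and 42.03 CPM in the perimacula, 49.1, 46.3, 52.8 and 55.5 CPM at the nasal location and 53.4, 57.9, 50.001 and 55.8 CPM at the periphery. Fovea, perimacula and nasal eyes did not overlap, and nasal and peripheral eyes did. The peripheral level was 2.19 times the foveal level, with a fovea-minus-periphery log2 fold change of -1.13 ± 0.08 (adjusted p = 4.41e-07). EPHA2, the receptor best known from epithelia, was at 1.82, 2.11, 3.33 and 4.01 CPM at the fovea, 3.56, 4.40, 10.2 and 5.36 CPM in the perimacula, 4.64, 5.79, 9.61 and 12.3 CPM at the nasal location and 10.1, 8.53, 9.99 and 10.4 CPM at the periphery. All foveal eyes lay below all peripheral eyes, and the log2 fold change was -1.81 ± 0.23 (adjusted p = 2.82e-05).

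The ligands differed among themselves. EFNA1, the ligand of EPHA2 first described in endothelium, was at 11.3, 8.98, 7.06 and 7.13 CPM at the fovea and 4.04, 2.53, 4.11 and 3.56 CPM at the periphery, 2.49-fold higher at the fovea (log2 1.32 ± 0.20, adjusted p = 9.40e-05). The perimacula, at 3.25, 3.67, 2.90 and 4.04 CPM, and the periphery overlapped, and the adjusted p of their difference was 0.997. The nasal eyes, at 3.13, 2.75, 2.67 and 2.24 CPM, overlapped both. The gene listed as EFNA3, whose product on glia meets EPHA4 on neurons in the hippocampus, was at 8.44, 10.8, 10.9 and 9.99 CPM at the fovea, 4.63, 6.52, 6.31 and 6.08 CPM in the perimacula, 4.38, 5.35, 4.08 and 4.62 CPM at the nasal location and 3.43, 1.61, 4.03 and 4.79 CPM at the periphery. The foveal eyes lay above all others, and the foveal level was 3.09 times the peripheral level (log2 1.63 ± 0.24, adjusted p = 7.86e-05). EFNA5, the repellent ligand of the retinotectal map, had means within their SD at both ends, 2.41 ± 0.315 CPM at the fovea and 2.40 ± 0.915 CPM at the periphery (SD, n = 4). The log2 difference was 0.11 ± 0.18 (adjusted p = 0.608). The means of EFNA5 were higher at the nasal location (3.94, 3.32, 3.996 and 4.76 CPM) and the perimacula (2.77, 3.51, 4.03 and 4.09 CPM).

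**Figure D2:**
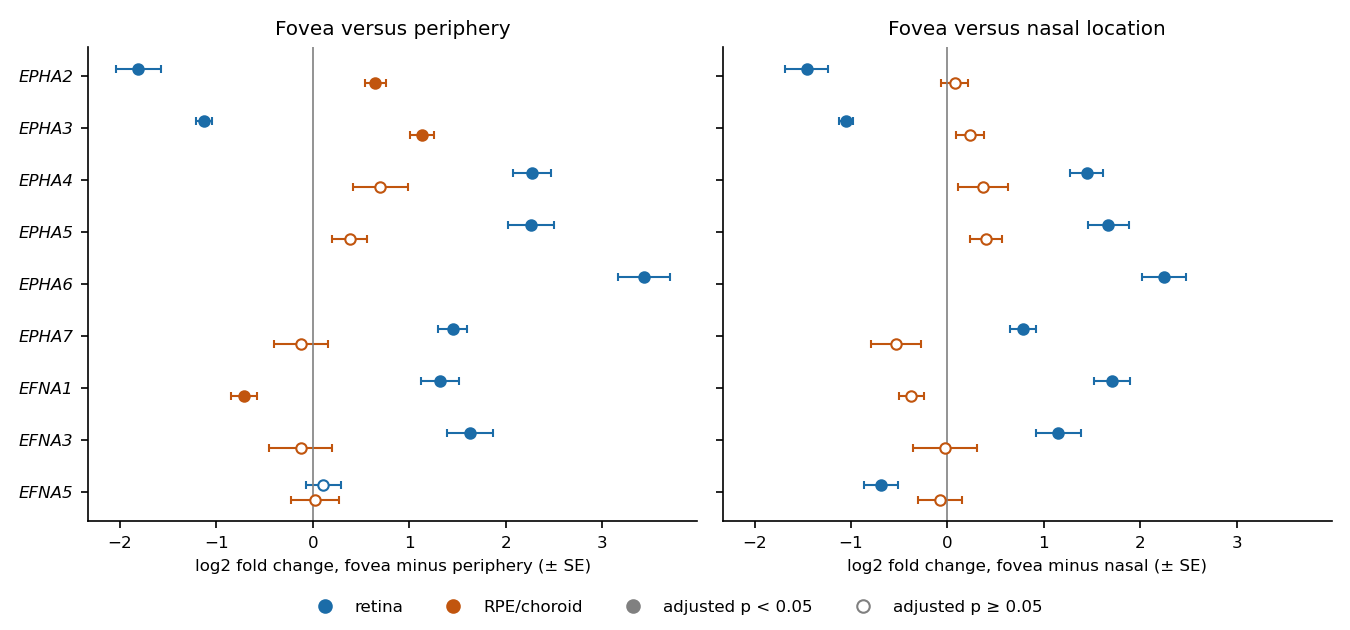
Log2 fold change ± SE of each gene between fovea and periphery (left) and between fovea and nasal location (right), in retina (blue) and RPE/choroid (orange), with filled points at an adjusted p under 0.05. In the left panel EPHA2 and EPHA3 are negative in retina (-1.81 and -1.13) and positive in RPE/choroid (0.65 and 1.13), and EFNA1 is the reverse; EPHA6 has no RPE/choroid point, since it did not pass the filter on low counts there.

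The comparison of fovea and nasal location, made within shared flow cells, gave the same directions in the retina as the comparison with the periphery for the 8 genes called there. All 9 genes were called, against a background of 52.2%. The 6 that were higher at the fovea (background 25.1%) ranged from EPHA7, at a log2 fold change of 0.79 ± 0.14, to EPHA6, at 2.25 ± 0.23. EPHA2 (-1.46 ± 0.22), EPHA3 (-1.05 ± 0.07) and EFNA5 (-0.69 ± 0.17) were higher at the nasal location, where the background was 27.2%. For each of the 9 genes the 4 foveal eyes did not overlap the 4 nasal eyes. The share of all genes tested that separate in this way was not computed.

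Between fovea and perimacula 8 genes were called against a background of 36.1%, 5 of them higher at the fovea (background 17.1%) and 3 higher at the perimacula (background 19%). The largest difference was that of EPHA6 (1.41 ± 0.24, adjusted p = 0.00116), followed by EFNA1 (1.32 ± 0.20) and EPHA2 (-1.04 ± 0.23). EPHA7 did not pass (0.37 ± 0.15, adjusted p = 0.0699), but was called by DESeq2 (adjusted p = 0.0392), with at least 10 counts required in every library (0.0482), in the fit of these groups alone (0.0367) and with the nasal libraries included (0.0314). With any eye left out only 5 or 6 genes were called. EFNA5 (-0.55 ± 0.18, adjusted p = 0.0336) then had an adjusted p of 0.0756 to 0.138, and 0.147 with no covariate, and EFNA3 (0.79 ± 0.23) one of up to 0.110, without RM04 OD, while EPHA5 (0.87 ± 0.23, adjusted p = 0.0115) had 0.0723, 0.0569 and 0.0611 without RM03 OD, RM03 OS and RM04 OD.

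Between perimacula and periphery 8 genes were called, against a background of 50.6%. EPHA4, EPHA5, EPHA6, EPHA7, EFNA3 and EFNA5 were higher at the perimacula (background 26.3%), with log2 fold changes from 0.67 for EFNA5 to 2.02 for EPHA6. EPHA2 (-0.77 ± 0.23) and EPHA3 (-0.32 ± 0.08) were higher at the periphery (background 24.3%). EPHA2 was not called without RM03 OD (adjusted p = 0.0779) or RM03 OS (0.0745), or with no covariate (0.0810). EFNA5 was not called without RM03 OD (adjusted p = 0.0706), RM03 OS (0.0577) or RM04 OS (0.0765), or with no covariate (0.0794), and EFNA3 was not called without RM04 OD (0.0654). Without RM03 OS the difference of EFNA3 was 0.51 in place of 0.84.

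The perimacular library of RM04 OS stood apart from those of the other 3 eyes and towards the fovea. It held 88.7 CPM of EPHA4, 9.29 CPM of EPHA6 and 59.3 CPM of EPHA7, and its summed ganglion cell markers were 6748 CPM where the other 3 eyes had 3159 to 4864 CPM. Its rod markers were 10646 CPM where the others had 14495 to 16564 CPM. Without it the fovea-minus-perimacula log2 fold change was 1.28 for EPHA4 in place of 0.96, 1.17 for EPHA5 in place of 0.87 and 1.78 for EPHA6 in place of 1.41. EPHA7 was then called (0.49, adjusted p = 0.0300), and EFNA5 was not (adjusted p = 0.0626).

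Cell type markers moved with location in the retina too. In bulk tissue fewer cells of a type and less RNA per cell cannot be told apart. The 10 ganglion cell markers added up to 10113 to 11951 CPM at the fovea, 3159 to 6748 CPM in the perimacula, 2279.8 to 2559 CPM at the nasal location and 594 to 1261 CPM at the periphery. The 9 rod markers ran the other way, from 4007 to 4617 CPM at the fovea to 23904 to 27959 CPM at the periphery, and so did the 5 Müller glia markers used, from 666 to 788 CPM to 2789.5 to 3755 CPM, although these were also at 3246 to 6073 CPM in RPE/choroid. The 8 cone markers were at 2303 to 3046 CPM at the fovea and 1627 to 1722 CPM at the periphery, and the 6 bipolar cell markers at 707 to 852 and 683 to 1113 CPM. RPE markers in retina went from 151 to 224 CPM at the fovea to 640.2 to 1315 CPM at the periphery and endothelial markers from 264 to 319 to 538 to 647 CPM, neither with overlap, beside EPHA2, which was also higher at the retinal periphery. The endothelial sum in retina was mostly KDR, at 235.4 to 599.9 CPM. PECAM1, CDH5, VWF, TEK and PLVAP reached at most 14.9, 9.06, 33.3, 9.14 and 4.65 CPM there. Among the ganglion cell markers NEFL, NEFM and NEFH reached 3082, 3735 and 2409 CPM in retina, while ISL1 was at 22.6 to 36.3 CPM. No marker of the lists used was at 0 in a retina library. The part of cell numbers in the gradients of the EphA and ephrin-A genes was not tested.

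**Figure D3:**
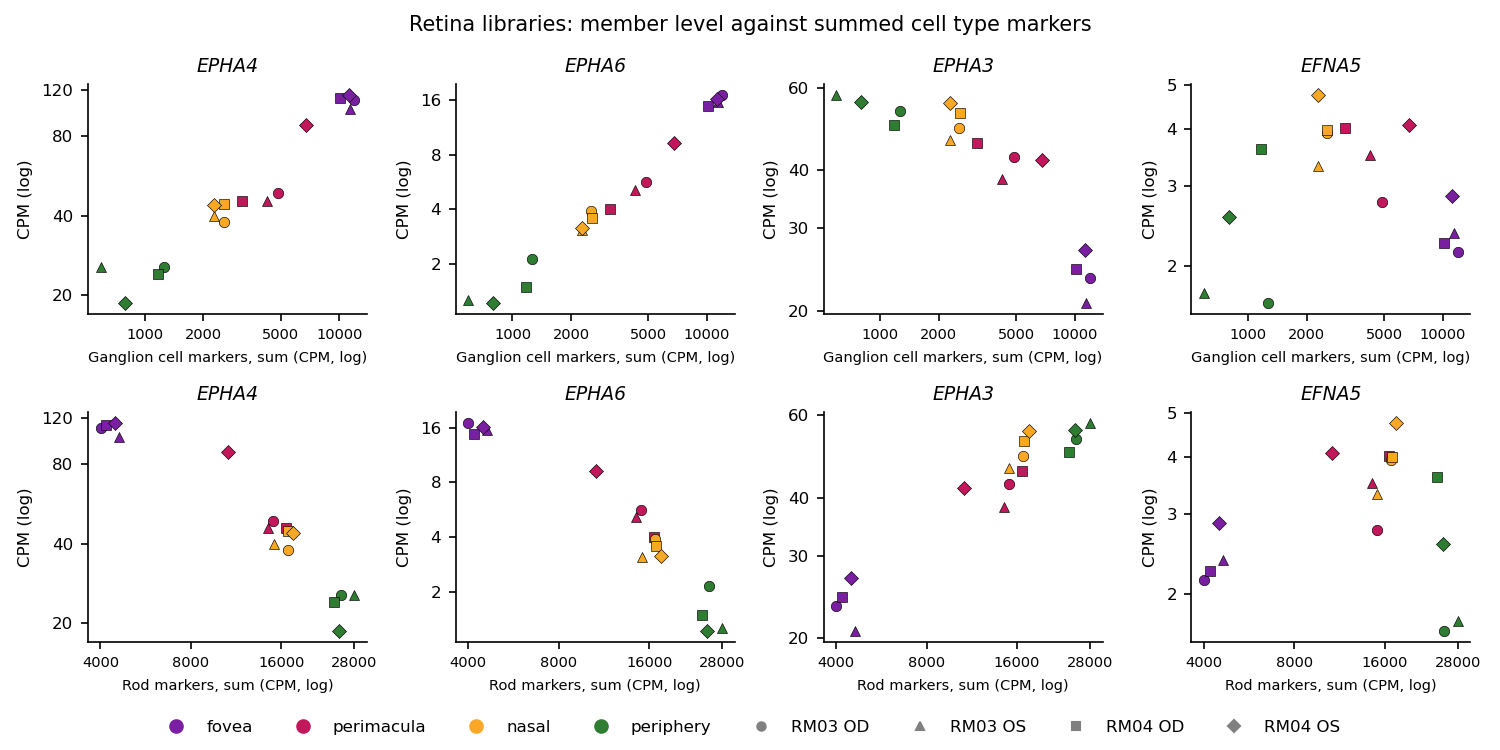
Level of EPHA4, EPHA6, EPHA3 and EFNA5 (CPM, log axis) in the 16 retina libraries against the summed ganglion cell markers (top row) and rod markers (bottom row) of the same libraries (CPM, log axes), with location as colour and eye as symbol. EPHA4 and EPHA6 are highest in the foveal libraries, which hold 10113 to 11951 CPM of ganglion cell markers, EPHA3 is lowest there, and EFNA5 is highest in libraries in the middle of both axes.

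In the RPE/choroid the family differed less between locations. EPHA6 was at or near 0 in all 16 libraries, at 0 to 0.176 CPM at the fovea and 0 to 0.0819 CPM at the periphery, or 19 and 7 estimated counts over 4 eyes, so that 8 genes were tested. Between fovea and periphery 3 of them were called, a share no higher than the background of 43.7%. EPHA2 and EPHA3 were higher at the fovea (background 21%) and EFNA1 at the periphery (background 22.7%). The median absolute log2 fold change of the 8 genes was 0.52, beside 0.42 over all genes tested.

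EPHA3 was at 24.8, 19.3, 23.6 and 26.6 CPM at the fovea, 24.2, 22.2, 24.96 and 29.7 CPM in the perimacula, 13.3, 17.4, 29.5 and 22.4 CPM at the nasal location and 9.10, 8.11, 12.6 and 13.7 CPM at the periphery of the RPE/choroid. All foveal and perimacular eyes lay above all peripheral eyes, and the nasal eyes, from 13.3 to 29.5 CPM, spread widely. The fovea-minus-periphery log2 fold change was 1.13 ± 0.13 (adjusted p = 5.51e-05), a 2.20-fold difference.

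EPHA2 was at 21.5, 22.1, 32.7 and 43.8 CPM at the fovea and 16.1, 14.9, 22.6 and 20.9 CPM at the periphery. The groups overlapped, RM04 being higher than RM03 at both locations, and each of the 4 eyes had more at its fovea than at its periphery, and the log2 fold change was 0.65 ± 0.11 (adjusted p = 6.96e-04). The fit without the animal as covariate did not call it (adjusted p = 0.0552). EFNA1, the ligand, went the other way, at 14.1, 11.3, 16.04 and 14.6 CPM at the fovea and 19.5, 21.1, 30.1 and 20.9 CPM at the periphery, with no overlap and a log2 fold change of -0.72 ± 0.14 (adjusted p = 0.00176). The perimacula was at 17.1, 17.2, 15.6 and 16.995 CPM and the nasal location at 19.2, 17.4, 19.2 and 16.7 CPM.

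The other RPE/choroid receptors had values that did not pass. EPHA4 was at 9.79, 12.4, 18.6 and 18.1 CPM at the fovea and 6.18, 6.89, 5.94 and 17.3 CPM at the periphery (log2 0.70 ± 0.29, adjusted p = 0.0707), where RM04 OS stood far above the other 3 eyes. Without RM04 OS the difference was 1.07 with an adjusted p of 0.0140. DESeq2 (adjusted p = 0.0326) and the fit with the nasal libraries (0.0388) also called EPHA4. EPHA5 was at 8.79, 10.6, 5.79 and 5.43 CPM at the fovea and 5.96, 9.47, 4.30 and 3.92 CPM at the periphery (log2 0.38 ± 0.18, adjusted p = 0.107), and without RM03 OS its adjusted p was 0.0489. With the eye as a replicate block in place of the animal 5 genes were called, EPHA4 (adjusted p = 0.0225) and EPHA5 (adjusted p = 0.0479) in addition, and with no covariate 2 were. EPHA7 had a mean of 11.2 ± 3.35 CPM at the fovea and 11.8 ± 4.09 CPM at the periphery, EFNA3 of 2.14 ± 0.7 and 2.29 ± 1.39 CPM and EFNA5 of 3.47 ± 0.474 and 3.48 ± 1.52 CPM (SD, n = 4). EPHA7 (-0.12 ± 0.28), EFNA3 (-0.13 ± 0.33) and EFNA5 (0.03 ± 0.25) had overlapping groups and adjusted p values from 0.76 to 0.941.

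In RPE/choroid no gene of the family was called between the fovea and the perimacula or the nasal location. Between fovea and perimacula edgeR called 0 of 8 (background 0.0441%), 1 gene, EPHA5, had an unadjusted p under 0.05, and DESeq2 called 0. Between fovea and nasal location edgeR called 0 of 8 (background 0.361%), EPHA5 and EFNA1 had an unadjusted p under 0.05, and DESeq2 called 0. The log2 fold changes ran from -0.71 (EFNA3) to 0.40 (EFNA5) in the first and from -0.53 (EPHA7) to 0.40 (EPHA5) in the second. Between perimacula and periphery 3 were called (background 34.5%): EPHA3 (1.22 ± 0.13) and EPHA2 (0.45 ± 0.11) were higher at the perimacula (background 17.6%) and EFNA1 (-0.46 ± 0.14, adjusted p = 0.024) at the periphery (background 17%). With no covariate EPHA2 was not called (adjusted p = 0.211). Without RM04 OD the EFNA1 difference was -0.27 (adjusted p = 0.1297), without RM03 OD its adjusted p was 0.0509 and without RM04 OS 0.0770.

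Markers of other cells moved with location in the RPE/choroid as well. Smooth muscle and pericyte markers (4 genes used) added up to 5187 to 8043 CPM at the fovea and 846 to 2011 CPM at the periphery, endothelial markers (6 genes) to 1684 to 2568 and 1088 to 1408 CPM, and fibroblast markers (4 genes used) to 2667 to 3381 and 4691 to 9337 CPM. Schwann cell markers (5 genes) were at 260.3 to 315 CPM at the fovea, from 280.4 to 9046 CPM at the perimacula and from 610.1 to 14417 CPM at the periphery. They passed 2000 CPM in 4 libraries, RM03 OD and RM04 OS at the perimacula and RM03 OD and RM03 OS at the periphery, and rod markers passed 500 CPM in 3 libraries. Without those 4 libraries the periphery is left with RM04 alone. EPHA3, EPHA2 and EFNA1 were then called between fovea and periphery, and between perimacula and periphery only EPHA3 was, with EPHA2 at 0.57 (adjusted p = 0.0663) and EFNA1 at -0.58 (adjusted p = 0.128). Without the 3 libraries with high rod markers EPHA4 was called between fovea and periphery (1.07, adjusted p = 0.0231) in addition to the 3 genes. The 10 ganglion cell markers added up to 128 to 423 CPM in RPE/choroid. They were at 304 to 423 CPM at the fovea and 128 to 229 CPM at the periphery, without overlap. Of these, POU4F1, POU4F2 and ISL1 were at 0 in 3, 1 and 1 libraries and reached at most 0.392, 1.54 and 1.61 CPM, while the other 7 were at 0 in none, with RBPMS at 62.7 to 272 CPM and THY1 at 36.1 to 89.3 CPM. The part of these cells in the differences was otherwise not tested.

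Whether the change from fovea to periphery differed between the tissues was tested as an interaction over all 32 libraries. The test called 7 of the 9 genes, against a background of 43.5%. EPHA2, EPHA3 and EFNA1 were called in opposite directions in retina and RPE/choroid, 3 of the 8 genes tested in both, where 7.11% of all genes tested in both were. The retina-minus-RPE/choroid difference of the log2 fold changes was -2.52 ± 0.28 for EPHA2 (adjusted p = 6.32e-08), -2.33 ± 0.19 for EPHA3 (adjusted p = 8.40e-10) and 1.98 ± 0.24 for EFNA1 (adjusted p = 2.25e-07). Thus EPHA2 and EPHA3 were lowest at the fovea in retina and lowest at the periphery in RPE/choroid, and EFNA1 was highest at the fovea in retina and lowest there in RPE/choroid.

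For EPHA4 (1.49 ± 0.35), EPHA5 (1.83 ± 0.29), EPHA7 (1.51 ± 0.30) and EFNA3 (1.63 ± 0.43) the interaction was called with a foveal excess in retina and no called difference in RPE/choroid. Without RM03 OS the EPHA7 value was 0.97, and without the 3 libraries with high rod markers that of EFNA3 was 1.05, both still called. EFNA5 did not pass (0.02 ± 0.36, adjusted p = 0.984), nor did EPHA6, for which no fitted difference is given since it is near 0 in RPE/choroid. Within the flow cells that fovea and nasal libraries shared, 6 of the 9 genes had a called interaction (background 23.5%): EPHA2 (-1.56 ± 0.28), EPHA3 (-1.31 ± 0.19), EPHA4 (1.04 ± 0.35), EPHA5 (1.22 ± 0.29), EPHA7 (1.28 ± 0.30) and EFNA1 (2.05 ± 0.24). That of EPHA4 (adjusted p = 0.0325) was not called without RM03 OD (adjusted p = 0.168) or RM03 OS (0.113), and EFNA3 (1.10 ± 0.43, adjusted p = 0.0672) was called without RM03 OS (1.45, adjusted p = 0.0220). Over all alternatives run 4 to 7 genes were called: 4 with no covariate, where EPHA4 (adjusted p = 0.0831) and EPHA5 (0.0571) were not, and 7 with DESeq2 among others, where EFNA3 was (0.0407).

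**Figure D4:**
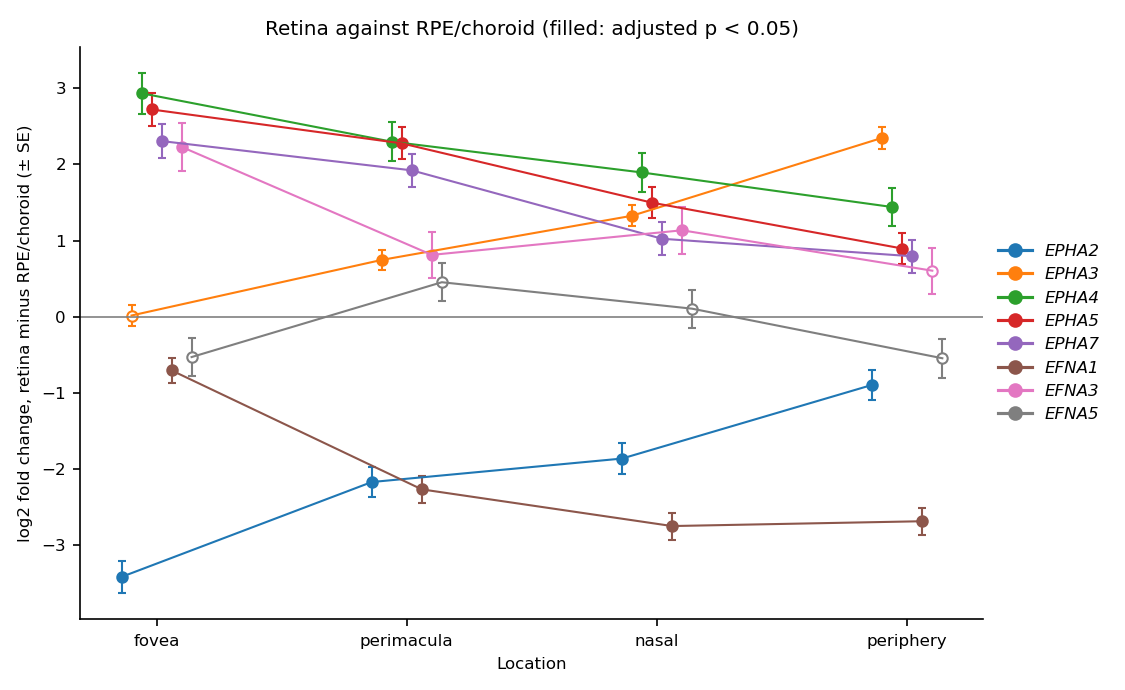
Log2 fold change ± SE between retina and RPE/choroid (above 0: higher in retina) at each location for 8 genes, with filled points at an adjusted p under 0.05; EPHA6 is left out because it is near 0 in RPE/choroid. EPHA3 starts at 0.02 at the fovea and reaches 2.35 at the periphery, EPHA2 goes from -3.42 to -0.90, and EFNA1 from -0.71 to -2.69.

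The tissues were then compared at each location. At the fovea 7 genes were called (background 75.5%), 5 higher in retina (background 37%) and 2 higher in RPE/choroid (background 38.4%). At the perimacula 8 were called (background 76.7%), 6 higher in retina (background 37.7%) and 2 higher in RPE/choroid (background 39%). The nasal location also gave 8 (background 76.2%), 6 in retina (background 37.6%) and 2 in RPE/choroid (background 38.6%), and the periphery 7 (background 75.7%), 5 in retina (background 37.8%) and 2 in RPE/choroid (background 37.9%). The counts called in either direction lie near the shares of all genes.

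The 2 genes higher in RPE/choroid were EPHA2 and EFNA1 at every location. EPHA2 was 10.7-fold higher there at the fovea (log2 retina minus RPE/choroid -3.42 ± 0.21) and 1.86-fold higher at the periphery (-0.90 ± 0.19). EFNA1 was 1.63-fold higher at the fovea (-0.71 ± 0.17, adjusted p = 4.49e-04) and 6.45-fold higher at the periphery (-2.69 ± 0.18). Without RM04 OD the foveal value was -0.47. Receptor and ligand thus parted in opposite directions across the eye, the tissue difference of EPHA2 being widest at the fovea and that of EFNA1 narrowest there.

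EPHA4, EPHA5, EPHA6 and EPHA7 were higher in retina at every location. The EPHA4 difference was 2.94 ± 0.27 at the fovea and 1.44 ± 0.25 at the periphery, that of EPHA5 2.72 ± 0.21 and 0.90 ± 0.20, and that of EPHA7 2.31 ± 0.22 and 0.79 ± 0.22. At the periphery the EPHA7 difference was 1.26 without RM03 OS, had an adjusted p of 0.0529 without RM04 OD, and was 0.52 (adjusted p = 0.0765) without the 3 libraries with high rod markers. For EPHA6 the counts themselves show the contrast, 833 to 971 estimated counts in a foveal retina library against 0 to 8 in a foveal RPE/choroid library, and 87 to 170 against 0 to 6 at the periphery. Of the RPE/choroid libraries with the most rod marker RNA, RM03 OD at the periphery (924 CPM) held 0.0145 CPM of EPHA6, RM04 OS at the periphery (690.2 CPM) 0.0819 CPM and RM04 OD at the fovea (538 CPM) 0.176 CPM, the highest of the 16.

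EPHA3 had no tissue difference at the fovea that passed the test, 23.9 ± 2.57 CPM in retina and 23.6 ± 3.11 CPM in RPE/choroid (SD, n = 4, log2 0.02 ± 0.14, adjusted p = 0.925). It was 1.68-fold higher in retina at the perimacula, 2.51-fold at the nasal location and 5.10-fold at the periphery (2.35 ± 0.14, adjusted p = 3.90e-14). EFNA3 was higher in retina at the fovea (2.23 ± 0.32), the perimacula (0.81 ± 0.30) and the nasal location (1.13 ± 0.31), and at the periphery its value did not pass (0.60 ± 0.30, adjusted p = 0.0744). At the perimacula the EFNA3 difference (adjusted p = 0.0173) was not called without RM04 OD (0.0965) or RM04 OS (0.0573). At the periphery EFNA3 was called without RM03 OD (1.09, adjusted p = 0.00550) or RM03 OS (0.70, adjusted p = 0.0435), and without the 3 libraries with high rod markers (adjusted p = 0.00494) or the 4 with high Schwann cell markers (0.0101). EFNA5 passed at no location, with log2 differences from -0.55 at the periphery to 0.45 at the perimacula, but without RM04 OD its peripheral difference was -0.92 (adjusted p = 0.00657). DESeq2 (adjusted p = 0.0469) and the fit without the 3 libraries with high rod markers (0.0304) also called it at the periphery, and it was called at the fovea in the fit of the foveal libraries alone (0.0360) and without the 4 libraries with high Schwann cell markers (0.0469).

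The 2 animals differed for several of the genes. EPHA2 had the higher mean in RM04 in all 8 groups, as at the foveal RPE/choroid, where RM03 was at 21.5 and 22.1 CPM and RM04 at 32.7 and 43.8 CPM. EPHA5 had the higher mean in RM03 in all 8, as at the foveal retina with 61.6 and 52.1 CPM against 42.2 and 41.9 CPM. In retina EPHA7 was higher in RM04 at 4 of 4 locations, with no overlap of the animals' eyes at any of them. With 2 animals no test between them was made.

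Of the other EphA and ephrin-A genes, EPHA8 and EPHA10 were measured. EPHA8, an EphA receptor of the nervous system, was at 6.02, 7.86, 6.82 and 7.16 CPM at the fovea and 2.96, 1.73, 4.85 and 4.68 CPM at the periphery of the retina (log2 1.08 ± 0.29, adjusted p = 0.00584), and at 0 to 0.111 CPM in foveal RPE/choroid. EPHA10, a receptor whose kinase domain is thought to be inactive, was at 8.83, 9.88, 13.7 and 15.8 CPM at the fovea and 2.43, 1.15, 4.49 and 4.94 CPM at the periphery of the retina (log2 2.02 ± 0.29, adjusted p = 6.74e-05). Both had their highest retinal mean at the fovea, as EPHA4, EPHA5, EPHA6 and EPHA7 had.

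The EphB receptors and ephrin-B ligands, the sister class whose ligands span the membrane, gave 6 called genes of 8 between fovea and periphery in retina (background 67%), with a median log2 fold change near 0 (-0.0044, beside -0.051 over all genes tested). EPHB1 (0.96 ± 0.19), EPHB2 (0.53 ± 0.16) and EPHB6 (1.47 ± 0.31) were higher at the fovea, and EPHB3 (-1.503 ± 0.20), EPHB4 (-1.23 ± 0.16) and EFNB1 (-0.71 ± 0.24) at the periphery. In RPE/choroid 3 of 8 were called (background 43.7%), EFNB1 higher at the fovea (0.79 ± 0.10) and EPHB1 (-1.62 ± 0.26) and EPHB2 (-0.92 ± 0.34) at the periphery. These 3 genes were also called in retina, each in the opposite direction, where 7.11% of all genes tested in both tissues were. EPHB2 passed narrowly in RPE/choroid (adjusted p = 0.049, same direction in 3 of 4 eyes), and its groups overlapped in both tissues. The groups of EFNB1 overlapped in retina.

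**Figure D5:**
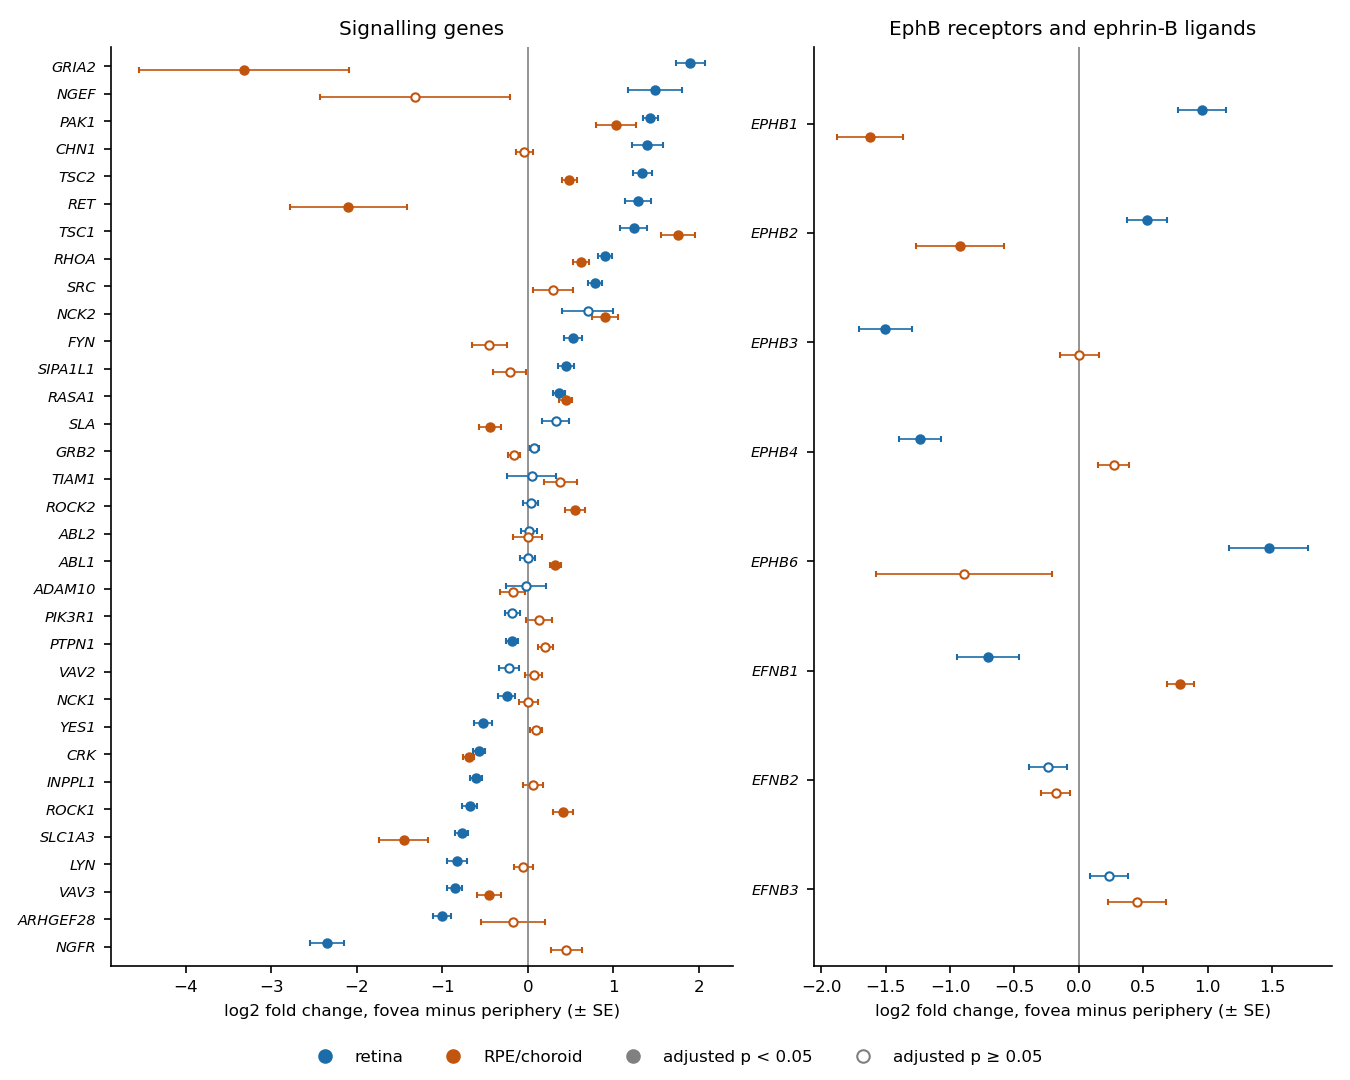
Log2 fold change ± SE between fovea and periphery (horizontal axis, above 0: higher at the fovea) for 33 genes of EphA forward and ephrin-A reverse signalling (left, ordered by the retinal value) and for 8 EphB and ephrin-B genes (right), in retina (blue) and RPE/choroid (orange), with filled points at an adjusted p under 0.05. GRIA2, NGEF, PAK1 and CHN1 stand at the top of the retinal order and NGFR at the bottom, at -2.35.

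A list of 39 genes that carry signals from EphA receptors or ephrin-A ligands was read beside the family. It had 33 genes with a single identifier, of which 23 were called between fovea and periphery in retina, 12 higher at the fovea and 11 higher at the periphery. Their median log2 fold change was 0.033, beside -0.051 over all genes tested, and the share called is close to the 67% of all genes. In RPE/choroid 15 of the 33 were called, close to the 43.7% of all genes, 9 higher at the fovea and 6 at the periphery, with a median of 0.057 beside -0.061 over all genes tested.

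Genes next to the receptor were among those that differed in retina. NGEF, the exchange factor ephexin that EPHA4 uses to activate RHOA, was at a mean of 3.79 CPM at the fovea and 1.49 CPM at the periphery (log2 1.49 ± 0.32, adjusted p = 0.00139). CHN1, the Rac-inactivating chimaerin downstream of EPHA4, was at 209 and 83.03 CPM (1.40 ± 0.18, adjusted p = 2.81e-05). FYN, a Src-family kinase of both directions of signalling, was higher at the fovea (0.53 ± 0.10), and VAV3, an exchange factor for Rac, at the periphery (-0.86 ± 0.09). Neither VAV2 (-0.22 ± 0.11) nor ADAM10, the protease that sheds ephrin-A ligands (-0.02 ± 0.23), was called.

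The 4 genes of the list with the lowest adjusted p in retina were PAK1, TSC2, NGFR and GRIA2. PAK1, a kinase that Rac and CDC42 activate, was at 109 CPM at the fovea and 41.9 CPM at the periphery (1.43 ± 0.09). TSC2, a brake on the mTOR pathway, was at 281 and 116 CPM (1.34 ± 0.11), and GRIA2, a subunit of AMPA glutamate receptors, at 188 and 52.8 CPM (1.90 ± 0.17). NGFR, the neurotrophin receptor through which ephrin-A ligands can signal in reverse, ran the other way, at 15.02 and 80.1 CPM (-2.35 ± 0.20).

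In RPE/choroid the 4 genes with the lowest adjusted p were CRK, TSC1, RHOA and NCK2. TSC1, the partner of TSC2, was at 7.31 CPM at the fovea and 2.17 CPM at the periphery (1.76 ± 0.19), the GTPase RHOA at 536 and 345 CPM (0.62 ± 0.09) and the adaptor NCK2 at 42.9 and 23.2 CPM (0.90 ± 0.15). The adaptor CRK was higher at the periphery (-0.69 ± 0.06). VAV3 was called in the same direction as in retina (-0.45 ± 0.14, adjusted p = 0.0234), and NGEF (-1.31 ± 1.11), VAV2 (0.07 ± 0.10), CHN1 (-0.04 ± 0.10), FYN (-0.45 ± 0.21) and ADAM10 (-0.18 ± 0.14) did not pass.

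The genes whose retinal pattern was most like that of each called member were taken from 9814 genes by Pearson's r of log2 CPM over the 16 retina libraries. The libraries fall into locations, so r is high for any gene with the same gradient, and it is given as a description only. EPHA6 was closest to FGF9 (r = 0.996) and OLFM1 (0.995), EPHA4 to MYO5A (0.994) and DNAJC27 (0.993), EPHA5 to DCTN1 (0.985) and CRLF3 (0.982), and EPHA7 to DOCK3 and SIAH3 (0.986 and 0.985). EPHA3 was closest to BAZ2B (0.993) and ZBTB26 (0.985), and EPHA2 to PIGO (0.967) and TCTN3 (0.9601). Among the ligands EFNA1 was closest to P4HA2 (0.974) and SLC41A3 (0.965), and EFNA3 to NT5M (0.983) and FAM69B (0.980).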

How the data were processed

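RNA-seq of rhesus macaque retina and RPE/choroid was read from 136 lane tables for 32 libraries. The authors removed 2 mm punches, kept RNA with an integrity number above 6.5, sequenced 100 bp paired ends, quantified them with Salmon 0.13 on Mmul_8.0.1 and named genes by orthology. The deposited column headed TPM holds length-scaled estimated counts per gene, which were summed over lanes and rounded to whole numbers. Library sums were 42448903 to 78574055, and expression of low genes is limited by these depths.

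edgeR 4.0.16 in R 4.3.3 was used with TMM scaling, filterByExpr (minimum count 10), the animal as covariate and Benjamini-Hochberg adjustment. Each tissue was fitted without its nasal libraries, as in the study, and with them for nasal comparisons. Tissue contrasts used all libraries. The samples share eyes and animals, as the labels show. In the mean, same-eye deviations correlated across locations at 0.561 in retina and 0.387 in RPE/choroid, fellow eyes at 0.555 and 0.403. After the animal's mean was taken out, same-eye deviations correlated at 0.015 in retina and -0.023 in RPE/choroid. Replicates differed by 4.32 to 79.2 times the counting variance, so no pair was taken for copies of 1 sample. This does not make fellow eyes independent. Fold changes are ratios of fitted means.

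All listed genes with a row, EPHA8, EPHA10, signalling genes with the 4 lowest adjusted p per tissue plus 6 fixed ones, and 2 most alike genes per called member were named. Members and lists were chosen with earlier results of these data known. Of the signalling list 6 genes with several identifiers were left out. DESeq2 1.42.0, RLE scaling, other filters, covariates and samples were tried as alternatives. Scripts were tested on simulated data.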

Additional observations from a re-analysis of the deposited data

Results flagged for a closer look

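In groups of 4 eyes, an eye was marked where its gap to the nearest other eye, divided by the range of the group, passed Dixon's 95% critical value for 4 samples. For 4 independent, normally distributed values chance marks about 1 in 20 groups. Fellow eyes share an animal, so this rate need not hold here. Of the 68 groups checked, 4 were marked. EPHA4 had a value of 0.928 at the retinal perimacula, where RM04 OS was the high eye, and 0.916 in peripheral RPE/choroid, where RM04 OS was again the high eye. EFNA1 had 0.856 in perimacular RPE/choroid, with RM04 OD as the low eye, and 0.847 in peripheral RPE/choroid, with RM04 OD as the high eye.

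The change from fovea to periphery differed between retina and RPE/choroid, by the interaction test of edgeR, for 7 genes. The retina-minus-RPE/choroid differences of the log2 fold changes were -2.52 for EPHA2, -2.33 for EPHA3, 1.49 for EPHA4, 1.83 for EPHA5, 1.51 for EPHA7, 1.98 for EFNA1 and 1.63 for EFNA3. For the change from fovea to nasal location they were -1.56 for EPHA2, -1.31 for EPHA3, 1.04 for EPHA4, 1.22 for EPHA5, 1.28 for EPHA7 and 2.05 for EFNA1.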

How the results depend on the processing

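Of 1571 log2 fold changes recomputed under alternatives, 1476 kept their direction and their side of the threshold, 36 lost the call, 26 gained it and 33 changed sign, each of the latter in a comparison where the gene was not called. In retina 8 genes were called between fovea and periphery and 9 between fovea and nasal location under every alternative run. Between fovea and perimacula 5 to 9 were called, with 5 to 8 when 1 eye or the perimacular library of RM04 OS was left out. The RPE/choroid comparison of fovea and periphery gave 2 to 5. With the eye as replicate block it gave 5, with EPHA4 and EPHA5 in addition, EFNA5 lost its call between retinal fovea and perimacula (adjusted p = 0.0546), and EFNA1 between retinal perimacula and periphery was at 0.013 and the tissue difference of EFNA5 for the periphery at -0.0077. The block changed no other call of these genes.

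Without the 4 RPE/choroid libraries with high Schwann cell markers, chosen after seeing the data, 1 gene was called between perimacula and periphery. EPHA7 was then at 0.31 (fovea versus periphery), 0.22 (fovea versus perimacula) and 0.090 (perimacula versus periphery), EPHA3 at 0.018 (fovea versus perimacula), EPHA5 at 0.012 (perimacula versus periphery) and the tissue difference of EFNA5 at -0.46. Without the 3 with high rod markers, also chosen after seeing the data, EFNA3 was at 0.39 (periphery) and 0.18 (nasal), EFNA5 at -0.24 (periphery) and foveal EPHA3 between tissues at -0.026. With no covariate EFNA5 was at -0.011 (periphery) and EFNA3 at 0.032 (nasal) in RPE/choroid.

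With 1 eye left out, uncalled values that changed sign ranged in retina from -0.018 to 0.38 (EFNA5, fovea versus periphery) and -0.16 to 0.12 (EFNA1, perimacula versus periphery). In RPE/choroid between fovea and periphery EPHA7 ranged from -0.30 to 0.35, EFNA3 from -0.41 to 0.25 and EFNA5 from -0.18 to 0.37. EPHA7 between fovea and perimacula ranged from -0.082 to 0.035, and between perimacula and periphery EPHA5 ranged from -0.12 to 0.039 and EPHA7 from -0.33 to 0.37. Between fovea and nasal location EPHA2 ranged from -0.15 to 0.27, EFNA3 from -0.31 to 0.22 and EFNA5 from -0.13 to 0.087. EFNA5 ranged from -0.091 to 0.35 between tissues at the nasal location and from -0.45 to 0.53 for the tissue difference with the periphery. The cause of these changes was not tested.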
